A study of Homo sapiens with 3 samples.

Results

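The 8 genes described here encode components of the tight junction, the belt-like seal near the top of epithelial cell contacts. They are the claudin genes CLDN1, CLDN4, CLDN7 and CLDN12, the occludin gene OCLN, the zonula occludens 1 (ZO-1) gene TJP1, the junctional adhesion molecule A gene F11R and the cingulin gene CGN. They were chosen by name, as 8 of 55773 gene symbols in the table. Transcripts were sequenced from 3 lines of HaCaT, a spontaneously immortalised line of human keratinocytes. All 3 lines expressed HRasG12V, an oncogenic form of HRAS, so that every comparison was made in cells with active RAS. On top of it the first line received an empty vector, the next wild-type THG-1, which is encoded by TSC22D4, and the last THG-1 S264A, in which alanine replaces a serine. There was 1 library per line, with no replicates and hence no p-values, and the sources used here do not say whether a line is a clone or a pool of transduced cells.

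Claudins are membrane proteins whose extracellular loops meet those of the neighbouring cell and form the strands of the junction, and the mix of claudins sets which ions and solutes pass between cells. Occludin and junctional adhesion molecules are further membrane proteins of the junction, and ZO-1 and cingulin form the cytoplasmic plaque that links it to actin and myosin. In epidermis functional tight junctions lie in the granular layer, and CLDN1 is required for the skin's barrier to water loss. CLDN1 and CLDN7 are also made by keratinocytes below that layer.

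The libraries held 32055052 reads in the empty-vector line, 12733479 with wild-type THG-1 and 14022885 with S264A, and the first was 2.52 times as deep as the second. Levels are given as RPKM, that is, reads scaled by gene length and library depth. TSC22D4 was at 7.98 RPKM in the empty-vector line, 64.9 RPKM in the wild-type line and 51.1 RPKM in the S264A line, and HRAS was between 22.4 and 27.8 RPKM. All 8 keratinocyte markers were at 17.4 RPKM or more in every library, with a summed level of 969, 1226 and 1327 RPKM in the order empty vector, wild type, S264A. The single markers did not move together. KRT14 was at 119, 287 and 382 RPKM and KRT5 at 367, 240 and 329 RPKM in that order. In wild type against empty vector 5 of the 8 markers were higher and 3 lower. The 4 simple-epithelium keratins summed to 824, 1140 and 776 RPKM in that order. KRT8 and KRT18 were higher in the wild-type library (247 and 246 RPKM) than with empty vector (126 and 101 RPKM) or S264A (126 and 104 RPKM). KRT7 was also highest there, at 168, 246 and 165 RPKM in the order empty vector, wild type, S264A. KRT19, the most abundant of the 4 in every library, was at 429, 401 and 381 RPKM in that order and was not higher with wild type. The part of the keratins in the differences between the lines given for the junction genes was not tested. No fibroblast or immune marker reached 1 RPKM in any library, and of the melanocyte and endothelial markers only MITF (1.70 RPKM in the wild-type line) and VWF (1.51 RPKM in the S264A line) did. In bulk RNA a smaller number of cells of a type and less RNA per cell cannot be told apart.

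The 3 most abundant of the 4 claudin genes differ in the sequence just before their starts, and the 250 bases upstream of a start are shown for them because CLDN4, CLDN1 and CLDN7 had the widest log2 ranges of the 8 genes over the lines. The sequences are from RefSeq (build GRCh38.p14), run 5′ to 3′ on the strand of the gene and end at the base before the annotated start. Capitals mark matches, on either strand, to 5 motifs, namely the E-box CACCTG that Snail and ZEB repressors bind, the AP-1 site TGANTCA, the GC box GGGCGG, the Grainyhead site AACNGGTT and an NF-kB site. No base in them lies in more than 1 match. CLDN4 is shown at chr7:73830746-73830995 (plus strand), CLDN1 at chr3:190322447-190322696 (minus strand) and the second of 2 CLDN7 starts at chr17:7262479-7262728 (minus strand).
CLDN4: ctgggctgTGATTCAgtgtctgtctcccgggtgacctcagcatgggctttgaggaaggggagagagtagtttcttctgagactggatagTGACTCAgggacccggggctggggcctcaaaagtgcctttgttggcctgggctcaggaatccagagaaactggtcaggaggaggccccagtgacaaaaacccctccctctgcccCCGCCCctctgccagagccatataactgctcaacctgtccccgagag
CLDN1: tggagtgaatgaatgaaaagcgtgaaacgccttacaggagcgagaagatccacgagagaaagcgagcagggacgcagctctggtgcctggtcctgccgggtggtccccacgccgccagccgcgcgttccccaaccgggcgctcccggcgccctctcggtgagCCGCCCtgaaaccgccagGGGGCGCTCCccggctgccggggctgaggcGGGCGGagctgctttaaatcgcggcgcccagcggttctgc
CLDN7: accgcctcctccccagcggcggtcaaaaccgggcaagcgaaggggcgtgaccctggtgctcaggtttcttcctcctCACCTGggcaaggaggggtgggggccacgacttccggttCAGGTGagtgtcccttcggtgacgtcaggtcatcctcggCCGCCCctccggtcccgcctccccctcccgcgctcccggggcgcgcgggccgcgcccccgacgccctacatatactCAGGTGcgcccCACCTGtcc
The CLDN4 window holds 2 AP-1 matches, at 242 and 161 bases before the start, and 1 GC box at 47 bases. At least 1 AP-1 match occurs in 6.57% of the 35116 RefSeq windows of the same length. The CLDN1 window holds GC boxes at 88 and 40 bases and 1 NF-kB match at 70 bases, motifs found in 42.6% and 9.96% of all windows. The CLDN7 window holds 4 E-box matches, at 174, 135, 20 and 9 bases, and 1 GC box at 96 bases. At least 1 E-box match, rather than 4, occurs in 17.5% of windows. The window of the first CLDN7 start (chr17:7263214-7263463), which is not shown, holds none of the 5 motifs. Which of the 2 starts these cells use was not measured. GC content was 58.8% for CLDN4, 68.8% for CLDN1 and 71.2% for this CLDN7 window, against a median of 58% over all windows. Among the other members, each of the 2 OCLN windows and 1 of the 4 TJP1 windows holds 1 E-box match. The first OCLN window also holds 1 GC box at 55 bases, and the 4 TJP1 windows hold 2, 3, 1 and 0 GC boxes. The CLDN12 window holds no match. The CGN window holds 5 GC boxes and 1 Grainyhead match at 27 bases, a motif in 1.49% of windows. The tables matched 7 of the 8 genes, all but F11R. These matches are letters in a window and no measurement of binding.

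CLDN4, which encodes claudin-4, differed most between the lines. It was at 20.5 RPKM (3089 reads) in the empty-vector line, 60.9 RPKM (3637 reads) in the wild-type line and 39.6 RPKM (2608 reads) in the S264A line. The wild-type line was highest, the empty-vector line lowest, and S264A stood between them. The ratio of wild type to empty vector was 2.96, with an exact 95% counting interval of 2.82 to 3.11. The ratio of S264A to empty vector was 1.93 (1.83 to 2.03), and that of S264A to wild type 0.651 (0.619 to 0.685). Such intervals come from the reads behind each value and cover counting error only, so that variation between cultures of 1 line is outside them.

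CLDN1, which encodes the claudin needed for the epidermal barrier, had the same order of lines. It was at 19.1 RPKM (2244 reads) in the empty-vector line, 37.8 RPKM (1763 reads) in the wild-type line and 26.0 RPKM (1333 reads) in the S264A line. Relative to the empty vector it was 1.98 times as high (1.86 to 2.11) with wild type and 1.36 times as high (1.27 to 1.45) with S264A. S264A was at 0.687 times (0.639 to 0.738) the wild-type level. With empty vector the counting intervals of CLDN1 (18.3 to 19.9 RPKM) and CLDN4 (19.8 to 21.3 RPKM) overlapped, whereas with wild-type THG-1 CLDN4 stood at 1.61 times CLDN1.

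CLDN7, which encodes a claudin that binds the adhesion molecule EpCAM, was the most abundant of the 8 genes in every library. It was at 71.0 RPKM (5674 reads) in the empty-vector line, 109 RPKM (3468 reads) in the wild-type line and 92.0 RPKM (3216 reads) in the S264A line. Its ratio to the empty-vector line was 1.54 (1.47 to 1.61) with wild type and 1.30 (1.24 to 1.35) with S264A, and S264A stood at 0.842 times (0.802 to 0.884) the wild-type level. The lines were thus in the order seen for CLDN4 and CLDN1, with a smaller spread. On the log2 scale the difference between S264A and wild type lay between -0.25 and -0.04 over the processing settings described below. In GENCODE release 29 exons of CLDN7 overlap those of ELP5 on the opposite strand. ELP5 was at 9.19, 7.001 and 7.09 RPKM in the order empty vector, wild type, S264A. Since strandedness is not given, reads from the overlap cannot be told apart.

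CLDN12, which encodes a claudin without the usual PDZ-binding end, was the least abundant member. It was at 2.73 RPKM (593 reads) in the empty-vector line, 2.98 RPKM (257 reads) in the wild-type line and 2.58 RPKM (245 reads) in the S264A line. All 3 ratios had counting intervals that included 1, namely 1.09 (0.939 to 1.27) for wild type to empty vector, 0.944 (0.810 to 1.10) for S264A to empty vector and 0.866 (0.724 to 1.04) for S264A to wild type. A difference between the lines was therefore not detectable for CLDN12 at this depth. Its exons overlap those of GTPBP10 (1.56 to 1.73 RPKM) and CDK14 (0.125 to 0.631 RPKM) on the same strand.

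**Figure D1:**
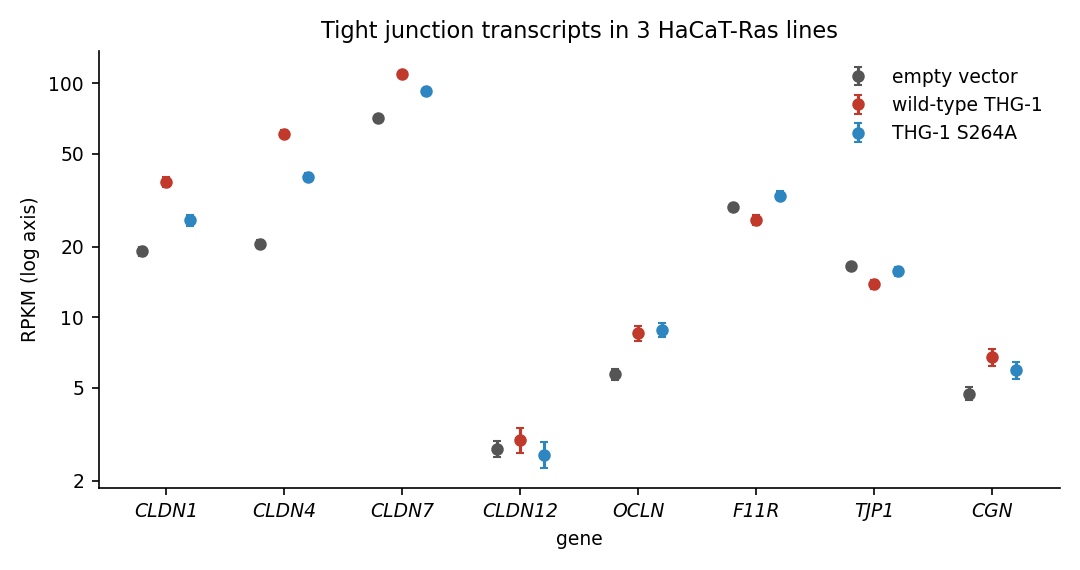
RPKM (log axis) of the 8 tight junction genes in the empty-vector, wild-type THG-1 and S264A libraries, 1 point per library, with bars for exact Poisson 95% counting intervals. CLDN4 runs from 20.5 to 60.9 RPKM and CLDN12 only from 2.58 to 2.98 RPKM.

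The plot of levels by library shows that most genes kept their places within a library. In each library CLDN7 came first, and TJP1, OCLN, CGN and CLDN12 came last, in that order. The changes of place were among F11R, CLDN4 and CLDN1. With empty vector their order was F11R, CLDN4, CLDN1. With wild-type THG-1 it was CLDN4, CLDN1, F11R. With S264A it was CLDN4, F11R, CLDN1. Apart from CLDN4 and CLDN1 with empty vector, no 2 neighbours in these orders had overlapping counting intervals.

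The summed claudin level was higher in both THG-1 lines, and CLDN4, CLDN1 and CLDN7 carried it, while CLDN12 differed by less than counting error. Over the 23 claudin genes in the table the sum was 119 RPKM in the empty-vector line, 217 RPKM in the wild-type line and 169 RPKM in the S264A line, or 1.82 and 1.42 times the empty-vector sum. CLDN7, CLDN4 and CLDN1 together made up 93.0%, 95.8% and 93.2% of it. The share of CLDN4 was 17.3% with empty vector, 28.0% with wild-type THG-1 and 23.4% with S264A. That of CLDN7 was 59.7%, 50.4% and 54.4% in the same order, so that CLDN7 took a smaller share where its own level was higher. CLDN1 stayed between 15.4% and 17.4%. The ratio of CLDN4 to CLDN7 was 0.289 with empty vector, 0.557 with wild-type THG-1 and 0.431 with S264A.

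**Figure D2:**
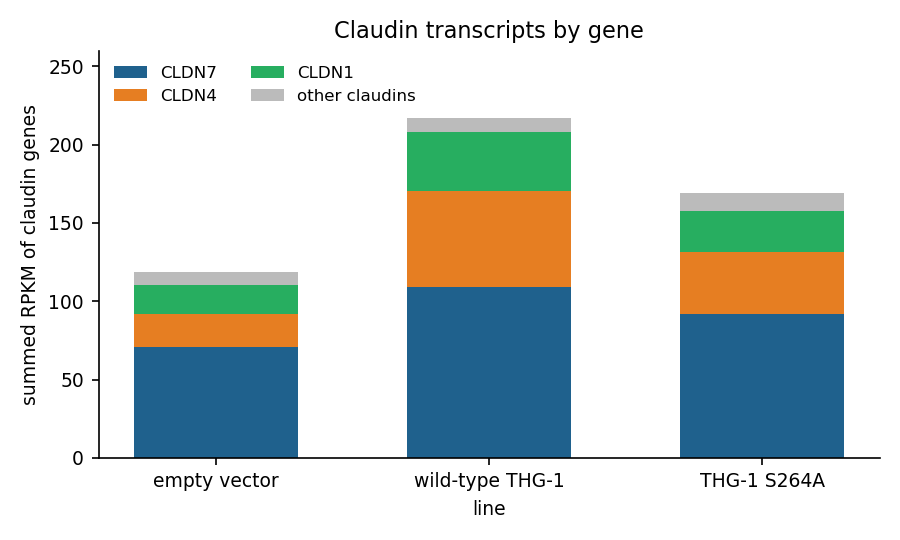
Summed RPKM of the 23 claudin genes in each of the 3 libraries, as stacked bars from 0 split by gene. The bar is 119 RPKM high with empty vector, 217 RPKM in the wild-type line and 169 RPKM in the S264A line, and CLDN7, CLDN4 and CLDN1 fill at least 93.0% of each.

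The plot of summed claudin levels leaves little room for the other family members. At 1 RPKM or more there were 6 claudins with empty vector, 6 with wild-type THG-1 and 8 with S264A, and 7, 7 and 6 were at 0. Outside the 4 members the most abundant was CLDN20, at 2.30, 2.34 and 2.54 RPKM in the order empty vector, wild type, S264A (89, 36 and 43 reads). It lies within the span of TFB1M on the opposite strand, a gene at 4.85 to 7.47 RPKM. Differences were counted on the RPKM + 1 scale defined below, which understates the change of low genes. In wild type against empty vector 0 of 2 other claudins compared passed the 2-fold line. It was 0 of 4 in each comparison with S264A. Over all genes 6.07% passed it in wild type against empty vector, 3.81% in S264A against empty vector and 3.78% in S264A against wild type. Of the genes named next, CLDN3 and CLDN8 were chosen after their values were seen. CLDN3, the neighbour of CLDN4 on chromosome 7, had 12 reads in the empty-vector line (0.294 RPKM), 14 with wild-type THG-1 (0.864 RPKM) and 28 with S264A (1.57 RPKM). Its ratio of S264A to empty vector was 5.33 with a counting interval of 2.63 to 11.5, and the interval of S264A to wild type, 0.925 to 3.73, included 1. With 1 RPKM added, its log2 difference between S264A and empty vector was 0.99, just under the 2-fold line. CLDN8 had 0, 3 and 27 reads in the same order and stayed below 1 RPKM.

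Of the other membrane components, OCLN encodes occludin, a tetraspan protein of the junction strands. It was at 5.70 RPKM (1236 reads) in the empty-vector line, 8.53 RPKM (734 reads) in the wild-type line and 8.80 RPKM (834 reads) in the S264A line. Both THG-1 lines stood above the empty vector, by 1.49 (1.36 to 1.64) and 1.54 times (1.41 to 1.69). They did not differ beyond counting error from each other, at 1.03 (0.933 to 1.14).

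F11R encodes junctional adhesion molecule A, an immunoglobulin-like protein that recruits polarity proteins to young contacts. It was at 29.5 RPKM (4788 reads) in the empty-vector line, 25.9 RPKM (1673 reads) in the wild-type line and 33.1 RPKM (2349 reads) in the S264A line. Here the wild-type line was the lowest, at 0.880 times (0.831 to 0.930) the empty vector, and S264A the highest, at 1.12 times (1.07 to 1.18). S264A was at 1.27 times (1.20 to 1.36) the wild-type level. On the log2 scale the difference of 0.16 between S264A and empty vector turned to -0.04 under scaling to a common upper quartile, which moved the median gene to -0.15.

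In the plaque, TJP1 encodes ZO-1, the scaffold that binds claudin tails. It was at 16.5 RPKM (6006 reads) in the empty-vector line, 13.9 RPKM (2000 reads) in the wild-type line and 15.7 RPKM (2492 reads) in the S264A line. The wild-type line was at 0.838 times (0.797 to 0.882) and S264A at 0.948 times (0.905 to 0.994) the empty vector, and S264A at 1.13 times (1.07 to 1.20) the wild type. The second of these intervals became 0.887 to 1.01 with the smallest gene length at which the values give whole reads, and then included 1. CGN, which encodes cingulin, a plaque protein that binds actin and myosin, was at 4.72 RPKM (1000 reads), 6.73 RPKM (567 reads) and 5.93 RPKM (550 reads) in the order empty vector, wild type, S264A. Its ratio to the empty vector was 1.43 (1.29 to 1.58) with wild type and 1.26 (1.13 to 1.40) with S264A, and S264A was at 0.881 times (0.782 to 0.992) the wild type.

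The membrane and plaque genes therefore differed in their proportions. The ratio of CLDN4 to TJP1 was 1.24 with empty vector, 4.39 with wild-type THG-1 and 2.53 with S264A. That of CLDN1 to TJP1 was 1.16, 2.73 and 1.66, and that of CLDN7 to TJP1 was 4.30, 7.89 and 5.87 in the same order. OCLN to TJP1 went from 0.345 with empty vector to 0.616 with wild-type THG-1 and 0.561 with S264A. F11R to TJP1 was 1.78, 1.87 and 2.11. Each of these ratios is taken within a library, so that scaling between libraries has no part in it.

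The wild-type THG-1 library was first set against the empty-vector library, both from cells with HRasG12V. Genes were compared by log2((RPKM + 1)/(RPKM + 1)) where at least 1 of the 2 libraries reached 1 RPKM, and counted as higher or lower from a 2-fold difference on this scale, which understates the change of low genes. All 8 members were at 1 RPKM or more in every library. Of the 8, 1 passed this line upward in the wild-type line, CLDN4, and 0 passed it downward, while 4.53% of 11993 genes passed it upward, 1.54% downward and 6.07% in either direction. A single gene in 8 does not set the members apart from this background. The log2 difference was 1.52 for CLDN4, and 208 genes had a larger one. It was 0.95 for CLDN1, just under the 2-fold line, 0.61 for CLDN7, 0.51 for OCLN, 0.44 for CGN and 0.09 for CLDN12. It was -0.18 for F11R and -0.24 for TJP1. The median of the 8 was 0.47, against -0.01 over all genes compared. Upper-quartile scaling moved the median gene to -0.23 and the members' median to 0.24, and CLDN12 to -0.10. Scaling to an equal sum moved the median gene to -0.14 and CLDN12 to -0.02. Relative to the median gene CLDN12 stood at 0.12 and 0.11 under these 2 scalings. Of all genes counted as changed, 74.6% were higher (543 higher, 185 lower), and 51.6% after upper-quartile scaling (387 and 363) and 62.7% after equal-sum scaling (434 and 258).

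S264A was next compared with the empty vector, and this comparison shares the empty-vector library with the one above. None of the 8 members was at least 2-fold higher or lower, while 2.99% of 12010 genes were higher and 0.824% lower, or 3.81% in all. CLDN4 came closest, with a log2 difference of 0.92. The other differences were 0.55 for OCLN, 0.42 for CLDN1, 0.37 for CLDN7, 0.28 for CGN, 0.16 for F11R, -0.06 for CLDN12 and -0.07 for TJP1. The median was 0.32, against 0.02 over all genes compared, and 0.14 with upper-quartile scaling. The higher share of all changed genes was 78.4% (359 higher, 99 lower), and 59.5% after upper-quartile scaling (260 and 177).

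The last comparison set the S264A form directly against wild-type THG-1. Again 0 of 8 members passed the 2-fold line in either direction, with 1.55% of 12069 genes higher and 2.23% lower, or 3.78% in all. CLDN4 was at -0.61 and CLDN1 at -0.53 on the log2 scale, CLDN7 at -0.25, CGN at -0.16 and CLDN12 at -0.15. OCLN was at 0.04, TJP1 at 0.17 and F11R at 0.34. The median was -0.16, against 0.02 over all genes. Equal-sum scaling moved the members' median to -0.06 and the median gene to 0.12. The higher share of all changed genes was 41.0% (187 higher, 269 lower), and 50.9% after equal-sum scaling (223 and 215). S264A lay between the other lines for 5 members, CLDN1, CLDN4, CLDN7, TJP1 and CGN. For these 5 the signs of the log2 differences in all 3 comparisons were the same under the 8 alternatives of scale, scaling, pseudocount and filter. Sizes were less stable. At their smallest, the differences between S264A and wild type were -0.04 for CLDN7 and -0.06 for CGN.

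**Figure D3:**
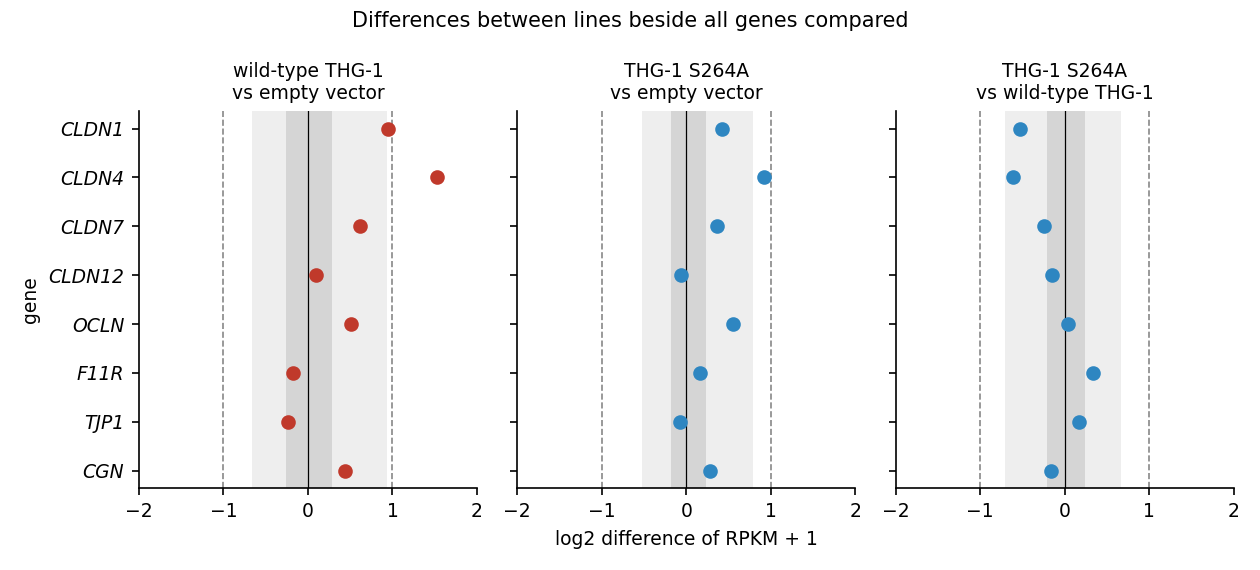
Log2 difference of RPKM + 1 for each of the 8 genes in the 3 comparisons, 1 panel each, with dashed lines at a 2-fold difference and bands from the 5th to the 95th and from the 25th to the 75th percentile of all genes compared. CLDN4 at 1.52 in wild type against empty vector is the only point past a dashed line.

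In the plot of differences by comparison, the 5th and 95th percentiles of all genes lay at -0.66 and 0.94 for wild type against empty vector. CLDN4 and CLDN1 were above that band. The corresponding percentiles were -0.53 and 0.78 for S264A against empty vector, where CLDN4 alone lay outside, and -0.70 and 0.67 for S264A against wild type, where all 8 lay inside.

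The other genes of the junction were taken from 9 lists with 96 genes in the table. Of those compared, 7 of 64 passed the 2-fold line upward and 1 downward in wild type against empty vector, beside 4.53% upward and 1.54% downward over all genes, with a median log2 difference of 0.26. With S264A against empty vector 2 of 65 were higher and 0 lower, beside 2.99% and 0.824% over all genes, with a median of 0.20. With S264A against wild type 0 of 65 were higher and 2 lower, beside 1.55% and 2.23%, with a median of 0.03. Counts of 1 or 2 genes in a single list, as given next, are too small to set a list apart from these shares. With upper-quartile scaling the first of these medians was -0.0040, or 0.22 above the median gene.

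Among tetraspan and tricellular junction proteins, LSR, a receptor of lipoproteins that marks the corners where 3 cells meet, was at 19.1 RPKM in the empty-vector line, 57.8 RPKM in the wild-type line and 27.8 RPKM in the S264A line. It was 3.03 times (2.85 to 3.23) as high with wild type as with empty vector, and S264A stood at 0.481 times (0.447 to 0.517) the wild type. The log2 difference of -1.03 between S264A and wild type was under the 2-fold line with the quantile-normalised values (-0.90), with upper-quartile scaling (-0.97), with equal-sum scaling (-0.92) and with a pseudocount of 5 (-0.94). LSR was the 1 of 3 genes of its list counted as changed in wild type against empty vector and in S264A against wild type, and none was in S264A against empty vector. In the list of immunoglobulin-like molecules only CXADR, the coxsackievirus and adenovirus receptor, reached 1 RPKM, at 3.37, 2.91 and 3.09 RPKM in the order empty vector, wild type, S264A.

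Among plaque scaffolds, MAGI3, which encodes a membrane-associated guanylate kinase, was at 3.59 RPKM in the empty-vector line, 1.09 RPKM in the wild-type line and 1.80 RPKM in the S264A line. Its ratio to empty vector was 0.305 (0.249 to 0.370) with wild type and 0.4999 (0.428 to 0.582) with S264A, and only the first passed the 2-fold line on the RPKM + 1 scale. It was the single scaffold of 5 compared that was counted as changed with wild-type THG-1. TJP3, a paralog of TJP1 that encodes ZO-3 and was chosen after its values were seen, was at 2.86, 5.79 and 6.40 RPKM in the order empty vector, wild type, S264A, or 2.03 (1.74 to 2.36) and 2.24 times (1.94 to 2.58) the empty vector. Its ratios to the empty vector were above 1 where those of TJP1 were below 1.

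In the polarity complexes, which set the border between the apical and lateral membrane, 1 of 12 genes was at least 2-fold higher with wild-type THG-1. AMOT, which encodes the junction-associated protein angiomotin, was at 1.80 RPKM in the empty-vector line, 8.14 RPKM in the wild-type line and 0.747 RPKM in the S264A line. Relative to the empty vector this was 4.52 times (4.04 to 5.05) with wild type and 0.414 times (0.327 to 0.520) with S264A. Wild type was 10.9 times (8.76 to 13.7) as high as S264A, so that S264A did not lie between the other lines.

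Among the surface proteases, ST14, which encodes matriptase, was at 32.8 RPKM in the empty-vector line, 91.2 RPKM in the wild-type line and 57.4 RPKM in the S264A line, with ratios to the empty vector of 2.78 (2.67 to 2.89) and 1.75 (1.67 to 1.83). It passed the 2-fold line on the RPKM + 1 scale in wild type against empty vector and had the order of lines of CLDN4, CLDN1 and CLDN7.

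In the adherens junction, the adhesive belt below the tight junction, 1 of 10 genes was at least 2-fold higher in each comparison with the empty vector. With wild-type THG-1 this was MLLT4, which encodes the actin linker afadin, at 2.12 RPKM in the empty-vector line and 5.95 RPKM with wild type, a ratio of 2.81 (2.57 to 3.08). It was at 4.06 RPKM in the S264A line. With S264A it was the E-cadherin gene CDH1, at 22.1 RPKM in the empty-vector line, 40.2 RPKM with wild type and 47.6 RPKM in the S264A line. Its ratio to the empty vector was 1.82 (1.74 to 1.90) with wild type and 2.15 (2.06 to 2.25) with S264A. With upper-quartile scaling both calls were lost, with a log2 difference of 0.96 for MLLT4 and 0.88 for CDH1.

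Transcription factors known to act on junction genes held 2 of 12 higher genes with wild-type THG-1 and 1 of 12 with S264A. GRHL1 and GRHL3 belong to the Grainyhead-like family, which maintains epithelial junction genes. GRHL2, the most abundant of the family and not counted as changed, was at 14.8, 11.1 and 14.1 RPKM in the order empty vector, wild type, S264A. Its ratio to the empty vector was 0.754 (0.698 to 0.814) with wild type and 0.9503 (0.888 to 1.02) with S264A. GRHL1 was at 0.467 RPKM in the empty-vector line, 2.43 RPKM in the wild-type line and 1.71 RPKM in the S264A line, or 5.20 (4.17 to 6.52) and 3.66 times (2.90 to 4.63) the empty vector. GRHL3 was at 2.43, 6.44 and 7.04 RPKM, or 2.65 (2.26 to 3.11) and 2.90 times (2.49 to 3.38). The call of GRHL3 with wild-type THG-1 was lost with upper-quartile (0.91) and equal-sum scaling (0.99). GRHL2 and the next 2 genes were chosen after their values were seen. SNAI2, which encodes the repressor Slug, was at 9.34, 4.23 and 6.56 RPKM in the order empty vector, wild type, S264A. Its ratios to the empty vector were 0.453 (0.371 to 0.550) with wild type and 0.703 (0.599 to 0.822) with S264A. The log2 difference of SNAI2 with wild type, -0.98, fell short of the 2-fold line. SNAI1 had 1, 6 and 0 reads in the order empty vector, wild type, S264A. Against the empty vector, 8 of the 12 factors compared were higher and 4 lower with wild-type THG-1. With S264A 10 were higher and 2 lower.

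**Figure D4:**
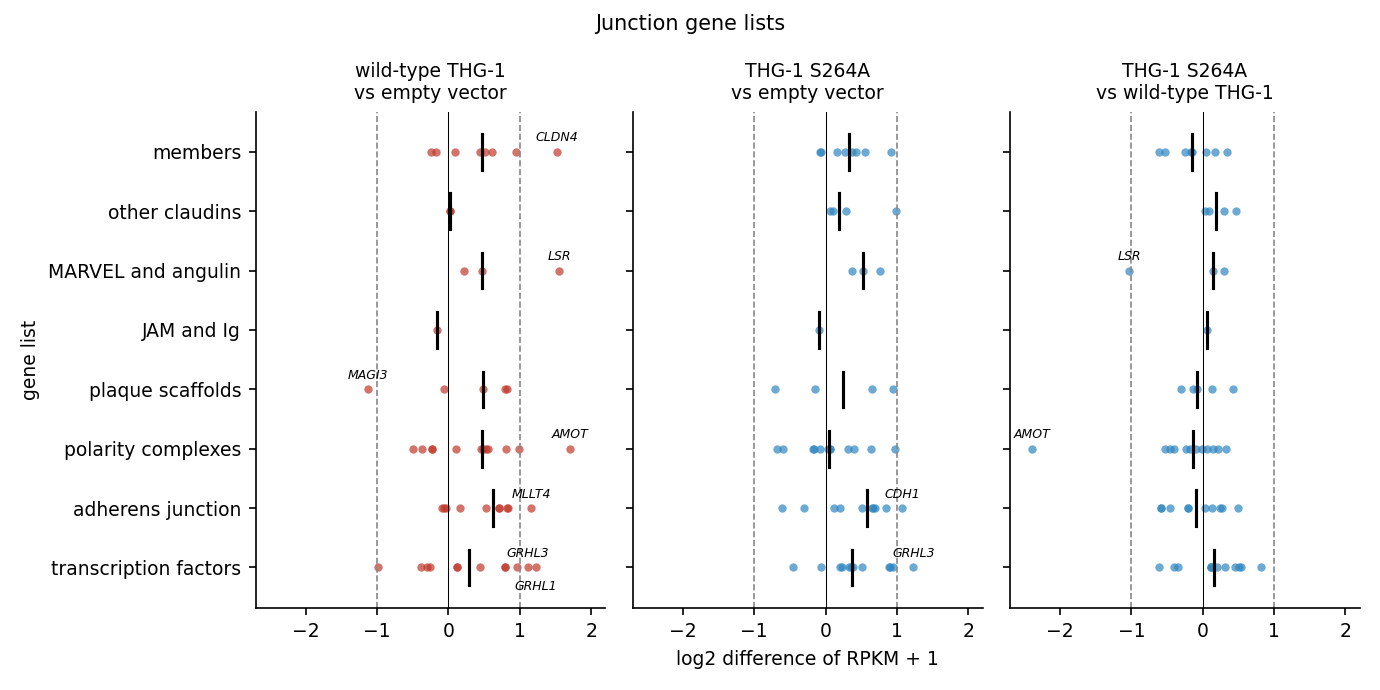
Log2 difference of RPKM + 1 for every compared gene of the members and of 7 of the 9 junction lists, 1 point per gene, with a bar at each list's median and dashed lines at a 2-fold difference. AMOT lies farthest above 0 in wild type against empty vector (1.71) and farthest below in S264A against wild type (-2.39).

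The plot of the junction lists shows the other claudins, MARVEL and angulin proteins, immunoglobulin-like molecules, plaque scaffolds, polarity complexes, adherens junction and transcription factors beside the members. With wild-type THG-1 against empty vector their medians ran from -0.16 for the immunoglobulin-like list to 0.62 for the adherens junction list, and the members' median was 0.47. With S264A against empty vector they ran from -0.09 to 0.58 for the same lists, and with S264A against wild type from -0.14 for the polarity complexes to 0.19 for the other claudins. The list of claudin partners and proteases, which is not plotted, had medians of 0.54, 0.31 and -0.33 in these comparisons, the last below those of the plotted lists.

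The genes most like CLDN4 over the 3 libraries were found by the distance between log2(RPKM + 1) values centred on each gene's mean, among 12378 genes at 1 RPKM or more in at least 1 library. The 5 nearest were RP1-34M23.5 (distance 0.0120), CYP4F11 (0.0215), OAS1 (0.0255), COL9A2 (0.0481) and MMP14 (0.0719). MMP14, which encodes a membrane-anchored matrix metalloproteinase, was at 15.5, 46.7 and 32.2 RPKM in the order empty vector, wild type, S264A. OAS1, which encodes an interferon-induced oligoadenylate synthetase, was at 2.56, 9.16 and 5.84 RPKM. CYP4F11 was at 0.201, 2.46 and 1.31 RPKM and COL9A2 at 0.0451, 2.12 and 0.962 RPKM in the same order. With 1 RPKM added, such low genes lie near CLDN4 although their plain ratios between the lines were larger. RP1-34M23.5 was likewise low, at 0.334, 2.80 and 1.53 RPKM. Its reads were 3, 10 and 6 at the smallest length that gives whole reads, and a longer length would give more. With 3 libraries a likeness of this kind rests on 3 points per gene.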

How the data were processed

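Total RNA of 3 HaCaT lines, 1 library each, was extracted with Trizol and sequenced on a NextSeq500, per the labels. The deposited table gives 57773 rows with gene symbols and, per library, RPKM as computed by the authors and a second column, which holds the RPKM quantile-normalised across the libraries. The submitters' processing notes name genome build hg19. The sources used here do not give the aligner, counting program, annotation, library selection or strandedness. For 234 symbols with several rows, the most abundant row was used.

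Whole reads were recovered from the steps of the RPKM values (tolerance 0.001 reads) for 98 of 98 junction and member genes above 0, with the GENCODE release 29 length where it fitted (51 genes), the nearest fitting length (41) or the smallest (6). They served only for exact Poisson and Clopper-Pearson 95% intervals (Python 3.11.15, numpy 2.4.6, scipy 1.17.1), which cover counting error only, since reads are not independent molecules. Scripts were tested on simulated data. Differences used a pseudocount of 1 RPKM, a filter at 1 RPKM in at least 1 of the 2 libraries and a 2-fold line, and 8 alternatives were run.

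The members, lists and rules were chosen with earlier results of these data known. By rule the text names all 8 members and the list genes counted as changed in any comparison, or else the most abundant gene of a list. The rule also takes in the 5 genes nearest to the member with the widest range. Outside this rule are TSC22D4, HRAS, cell type markers and genes that overlap a claudin. CLDN3, CLDN8, TJP3, GRHL2, SNAI2 and SNAI1 are also outside it and were chosen after their values were seen. Some list genes that this rule takes in are not reported here.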

Additional observations from a re-analysis of the deposited data

How the results depend on the processing

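The number of members counted as higher or lower was the same in all 8 alternatives in each of the 3 comparisons, namely 1 and 0, 0 and 0, and 0 and 0. The 8 were the quantile-normalised values, upper-quartile and equal-sum scaling, pseudocounts of 0.1 and 5, no filter, a filter at 5 RPKM and the sum of rows with 1 symbol. Relative to the median gene, CLDN4 lay between 1.37 and 1.57 on the log2 scale in wild type against empty vector over these settings, CLDN1 between 0.83 and 0.99, and TJP1 between -0.30 and -0.19. The filter at 5 RPKM leaves CLDN12 without a value. Counts over the junction lists moved more. With wild type against empty vector the 1 lower gene became 2 with the quantile-normalised values, upper-quartile and equal-sum scaling, 3 with a pseudocount of 0.1, and 0 with a pseudocount of 5 or a filter at 5 RPKM, and the 7 higher genes became 5 with upper-quartile scaling, 6 with equal-sum scaling, 6 with a filter at 5 RPKM, 9 with a pseudocount of 0.1 and 3 with a pseudocount of 5. With S264A against empty vector the 2 higher genes became 1 with upper-quartile scaling, 8 with a pseudocount of 0.1 and 0 with a pseudocount of 5, and the 0 lower genes became 1 with a pseudocount of 0.1. With S264A against wild type the 2 lower genes became 1 with the quantile-normalised values, upper-quartile scaling, equal-sum scaling and a pseudocount of 5. Apart from the calls lost by construction with a pseudocount of 5 or a higher filter, the cause was not tested. With the smallest fitting length the interval of CLDN7 in wild type against empty vector widened to 1.45 to 1.63. No paired analysis was possible because each line has 1 library. The lower depth of the THG-1 libraries limits the genes with few reads, such as CLDN3, CLDN8 and CLDN12.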
